A study of Rattus norvegicus with 5 samples.

Results

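The genes described are the translation initiation and elongation factors and the aminoacyl-tRNA synthetases of the rat small intestine under caloric restriction (CR). They were chosen by name, from the probe sets annotated to 1 gene symbol. The symbol had to start with Eif or Eef, or to have the form of an aminoacyl-tRNA synthetase symbol such as *Vars1*. This gave 91 probe sets of 77 genes, out of 10411 genes with 1 symbol on the array. The synthetase genes *Eprs1*, *Farsa* and *Farsb* have symbols of another form and are described apart. After dim probe sets were set aside, 77 probe sets of 71 genes remained, and 14 probe sets were not kept. In 6 genes (*Eef1a2*, *Hars2*, *Cars2*, *Eif4e3*, *Eef1akmt4* and *Eif2ak4*) no probe set was bright enough to be kept.

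The animals were male Wistar rats, bought at 5 weeks of age and fed the AIN-93G powdered diet. From 6 weeks of age, for 1 month, the 4 CR groups received 5, 10, 20 or 30% less food than the daily intake recorded for freely fed rats, and the control group received that intake in full. All groups were fasted for 16 h before the tissue was taken. RNA of the 5 rats of a group was pooled and hybridised to 1 Affymetrix rat 230A array, so each level is 1 array, animals within a level cannot be compared, and every ratio shares the same control array. The signals are linear intensities with no unit, and the difference between arrays is given as a log2 ratio, in which 1 means a doubling.

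Initiation factors bring the small ribosomal subunit, the initiator tRNA and the capped mRNA together. The cap-binding protein eIF4E is held back by small binding proteins that the nutrient-sensing kinase complex mTORC1 phosphorylates, and the delivery of initiator tRNA by eIF2 is curbed by kinases that sense uncharged tRNA, haem, unfolded protein or double-stranded RNA. Elongation factors then carry charged tRNAs to the ribosome and move it along, while the synthetases load each tRNA with its amino acid. The intestinal epithelium, which renews itself quickly and secretes apolipoproteins and enzymes, makes much protein.

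Enterocyte transcripts marked the tissue. All 11 enterocyte markers on the array were kept, and all 11 were brightest on the 20% CR array. Their summed signal was 16400 to 23690 on the CR arrays and 15380 on the control array. Without *Fabp1*, the brightest of them, the sums were 11030 to 17220 on the CR arrays and 11320 on the control array, with the 10% and 30% CR arrays below control, and the mean log2 ratio was above 0 for 6 of the 11 and below 0 for 5. The 14 markers of exocrine pancreas on the array summed to 517.2 to 701.3 on the CR arrays and to 1286 on the control array, which was the brightest of the 5 arrays for 12 of the 14. *Ctrb1*, a chymotrypsinogen gene, had a signal of 74.0 on the control array, then 15.5, 0.7, 1.4 and 0.8 at 5, 10, 20 and 30% CR. Only 2 of these 14 genes passed the filter, and 4 lay under it on every array. Without *Reg1a*, the brightest of the list on the control array, the sums were 280.2 to 399.4 on the CR arrays and 1017 on the control array. Markers of macrophages and mast cells summed to 4011 to 5461 on the CR arrays and 3876 on the control array. Without *Lyz2*, which is also a Paneth cell marker, they summed to 1442 to 1971 on the CR arrays and 1633 on the control array. Markers of lymphocytes summed to 5189 to 6393 on the CR arrays and 5540 on the control array. Without *Cd74* they summed to 1535 to 1613 on the CR arrays and 1335 on the control array, where *Cd3g* alone had 1025.4. Of the 10, 6 were higher on every CR array than on the control array, as were 19.0% of all kept probe sets. Among those 6, *Cd2*, *Cd8a*, *Cd4* and *Cd79b* were dim and not kept. The 19.0% covers kept probe sets only, so nothing is read from this count. Only 5 of these 10 genes were kept, and 4 lay under the filter on every array. For smooth muscle the sums were 11060 to 15070 on the CR arrays and 13720 on the control array. The ratio of the actin 3′ probe set to the 5′ probe set was 3.18 on the 20% CR array and 2.2 to 2.41 on the other 4 arrays. Whether any of these differences has a part in the values of the translation genes was not tested. In pooled tissue, fewer cells of a type and less RNA per cell cannot be told apart.

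Most translation genes had mean CR signals close to the control signal. The genes named next had a mean log2 ratio beyond 0.5 in either direction. *Vars1*, the cytosolic valyl-tRNA synthetase, *Vars2*, its mitochondrial counterpart, and *Eif4ebp3*, an inhibitor of eIF4E, had higher signals on every CR array than on the control array. *Tars1*, the cytosolic threonyl-tRNA synthetase, and *Fars2*, the mitochondrial phenylalanyl-tRNA synthetase, had lower ones on every CR array. None of these differences passed the limma test after Benjamini-Hochberg adjustment over the 7933 kept probe sets. With the brightest probe set of each gene, the mean log2 ratio to control had a median of -0.007 over the 71 genes, 35 above 0 and 36 below. Over all 6202 kept genes the median was -0.006. Of the 71 genes, 60 (84.5%) had a mean ratio within 0.25 of 0, against 74.7% of all kept genes. The SD of the mean ratios was 0.28 over the 71 genes and 0.25 over all kept genes. For the middle gene of the set, the SD over the 4 CR levels was 0.13, and for all kept genes 0.17.

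**Figure D1:**
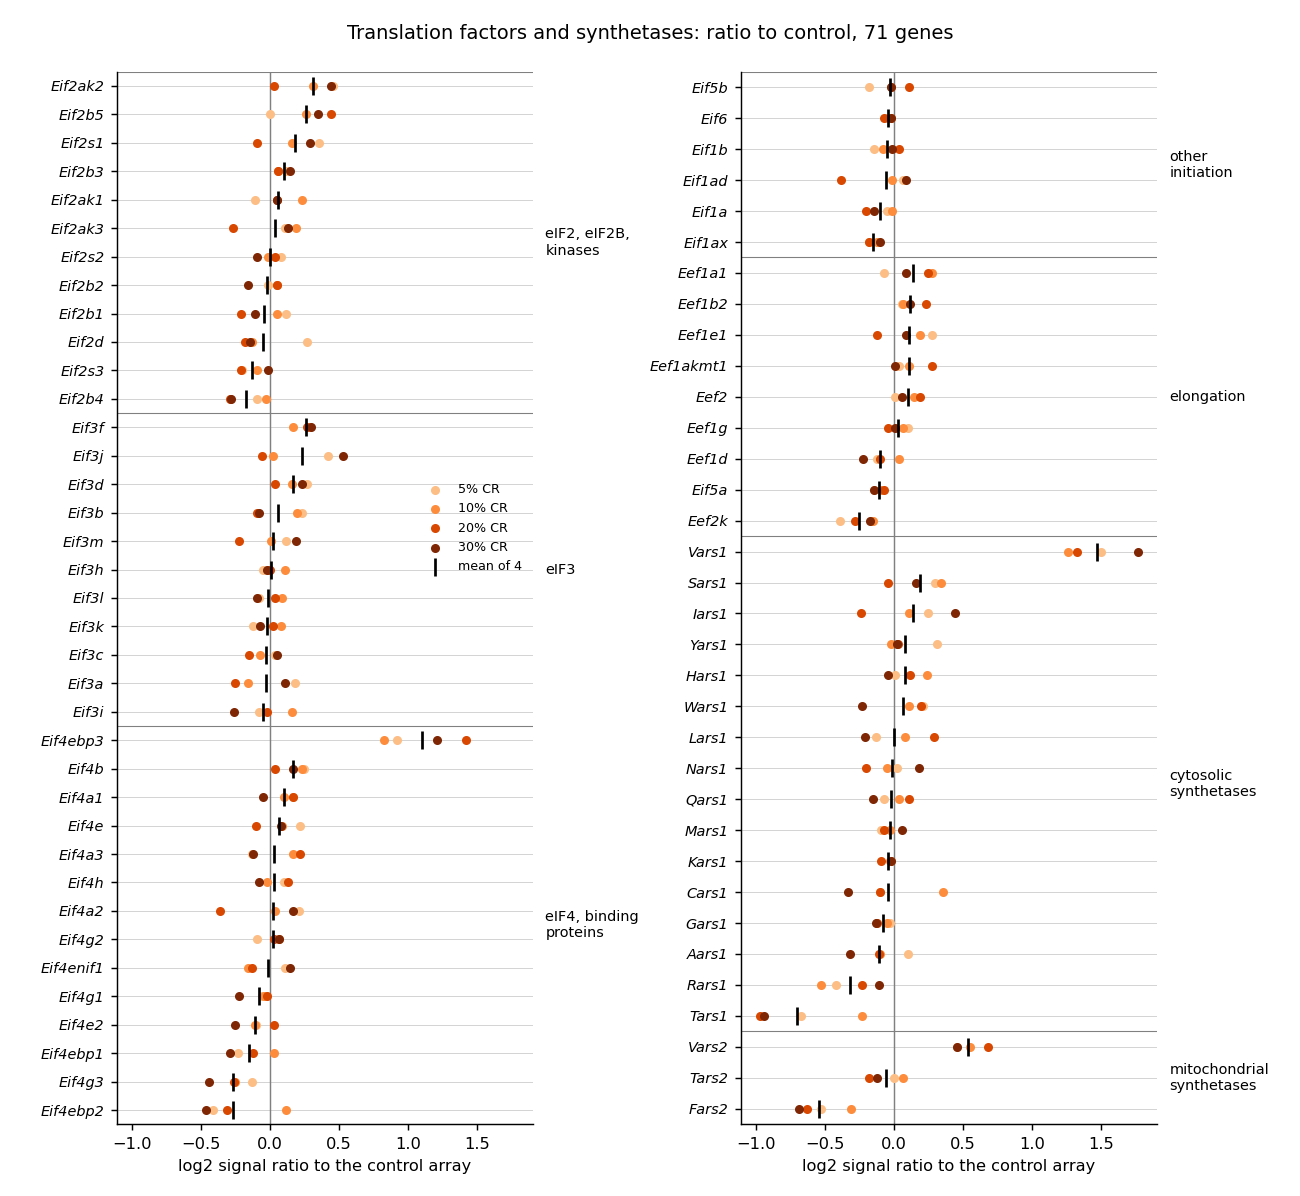
Log2 signal ratio of each CR array to the control array for the 71 kept genes, 1 row per gene, grouped by role. Points are the 4 CR levels (1 array each) and the black bar is their mean. Most means lie within 0.25 of 0. The 11 means outside include those of *Vars1*, *Eif4ebp3*, *Tars1*, *Fars2* and *Vars2*, which lie farthest from 0.

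**Figure D2:**
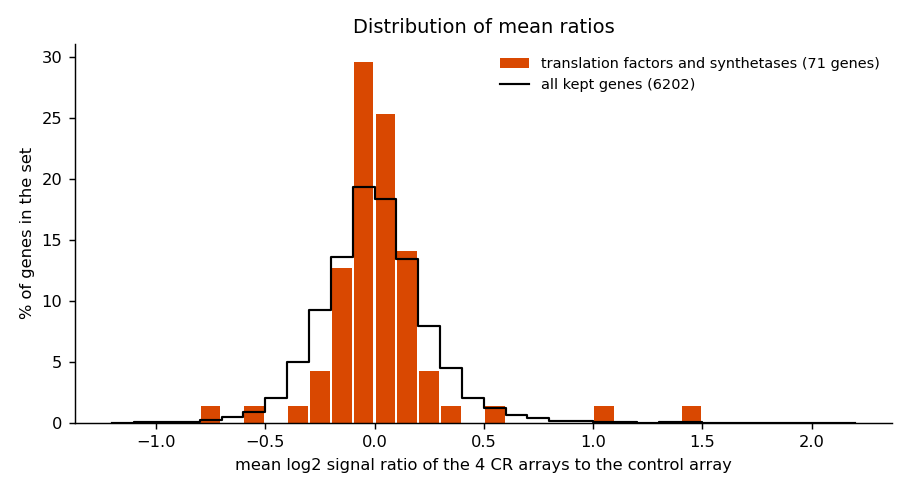
Share of genes (%) by mean log2 ratio of the 4 CR arrays to the control array, in steps of 0.1. Bars are the 71 translation factors and synthetases and the line is all 6202 kept genes; both centre near 0, and the isolated bars on the right are *Eif4ebp3* (1.10) and *Vars1* (1.47).

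The eIF2 group holds the subunits of eIF2, its exchange factor eIF2B, its kinases and *Eif2d*, a separate factor that can deliver initiator tRNA, and 12 of its 13 genes were kept. The median of their mean log2 ratios was 0.02, with 7 genes above 0 and 5 below. The eIF2 subunits *Eif2s1*, *Eif2s2* and *Eif2s3* had mean log2 ratios of 0.18, 0.00 and -0.13. *Eif2s1*, the subunit that the kinases phosphorylate, had a signal of 483.1 on the control array, then 620.2, 541.5, 455.2 and 591.7 at 5, 10, 20 and 30% CR. Its control signal lay inside the CR range. Of the eIF2B subunits, *Eif2b5*, the catalytic one, had the largest mean ratio, 0.26 (SE 0.23), with signals of 73.3 on the control array, then 73.3, 87.5, 99.6 and 93.5 along the CR levels. *Eif2b4* had the lowest, -0.17 (SE 0.16), with 324.4 on the control array, then 304.2, 317.2, 265.7 and 267.4 along the levels. The other 3 subunits lay between -0.04 and 0.10. *Eif2d* had a mean log2 ratio of -0.05, with the 5% CR array above control and the other 3 below it.

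The kinases of eIF2 were dim or uneven. *Eif2ak2*, the double-stranded RNA kinase, had a signal of 47.4 on the control array, then 65.2, 58.9, 48.4 and 64.2 at 5, 10, 20 and 30% CR, a mean log2 ratio of 0.31 (SE 0.26). All 5 values stood near the filter, and the 20% CR array did not stand apart from control. *Eif2ak3*, the kinase of the endoplasmic reticulum stress response, had a mean log2 ratio of 0.04 with levels of both signs. *Eif2ak1*, the haem-regulated kinase, was measured by 2 kept probe sets that gave mean log2 ratios of 0.06 and -0.40. The dimmer of the pair had 206.6 on the control array, then 122.5, 188.8, 160.6 and 161.1 along the CR levels, so its direction depended on the probe set. *Eif2ak4*, the kinase that senses uncharged tRNA, had 19.9 on the control array, then 39.5, 23.2, 28.1 and 28.9 along the levels, all below the filter.

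The 11 eIF3 genes encode the large scaffold that holds the small ribosomal subunit, and all were kept. Their mean log2 ratios had a median of 0.01 and ran between -0.05 and 0.26, with 6 above 0 and 5 below. *Eif3f* had the highest, 0.26 (SE 0.13). Its signal was 962.9 on the control array, then 1178.9, 1083.0, 1162.9 and 1189.0 at 5, 10, 20 and 30% CR. Every CR array was brighter than control, by log2 ratios of 0.17 to 0.30. *Eif3j*, a loosely bound subunit, had 368.4 on the control array, then 494.5, 373.3, 353.3 and 533.1 along the levels. Its 5% and 30% arrays were bright and its 10% and 20% arrays were near control. *Eif3d*, a subunit that can itself bind the cap, had a mean log2 ratio of 0.17 (SE 0.14).

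In the eIF4 group, which holds the cap-binding complex, its RNA helicases and the eIF4E-binding proteins, 14 of 15 genes were kept and the median of the mean log2 ratios was 0.02. *Eif4ebp3* (probe set 1373692_at) was the exception in this group. Its signal was 90.6 on the control array, then 171.5, 160.8, 242.7 and 210.3 at 5, 10, 20 and 30% CR, and no CR array came near the control value. The log2 ratios were 0.92, 0.83, 1.42 and 1.21, with a mean of 1.10 (SE 0.23), a 2.14-fold difference, and a limma adjusted p of 0.37. Of all kept probe sets, 0.214% had a mean ratio at least as high. The slope over all 5 arrays was 0.36 (SE 0.11) log2 per 10% restriction. With the 4 CR arrays alone it was 0.18 (SE 0.10). The brightest *Eif4ebp3* signal stood on the 20% CR array, where the enterocyte markers were also brightest. Without that array the mean log2 ratio to the same control array was 0.99. Whether the enterocyte and *Eif4ebp3* patterns are linked was not tested.

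The other eIF4E-binding proteins did not share this pattern. *Eif4ebp1* had a signal of 216.4 on the control array, then 184.0, 220.6, 199.4 and 177.4 along the CR levels, a mean log2 ratio of -0.15 (SE 0.18). *Eif4ebp2* had 395.1 on the control array, then 297.1, 428.8, 319.3 and 286.4 along the levels, a mean of -0.27 (SE 0.21). In both, the 10% CR array was slightly above control and the other 3 CR arrays were below it. *Eif4e*, the cap-binding protein itself, had a mean log2 ratio of 0.07, *Eif4a1*, the helicase, 0.10, and *Eif4g1*, the scaffold, -0.08. *Eif4g3*, another scaffold, had 86.1 on the control array, then 78.6, 72.2, 72.0 and 63.4 at 5, 10, 20 and 30% CR, so its signal was lower at the higher levels, with a mean log2 ratio of -0.27 (SE 0.22). *Eif4g2*, a scaffold that does not bind eIF4E, had 2 kept probe sets with mean log2 ratios of 0.02 and -0.35.

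**Figure D3:**
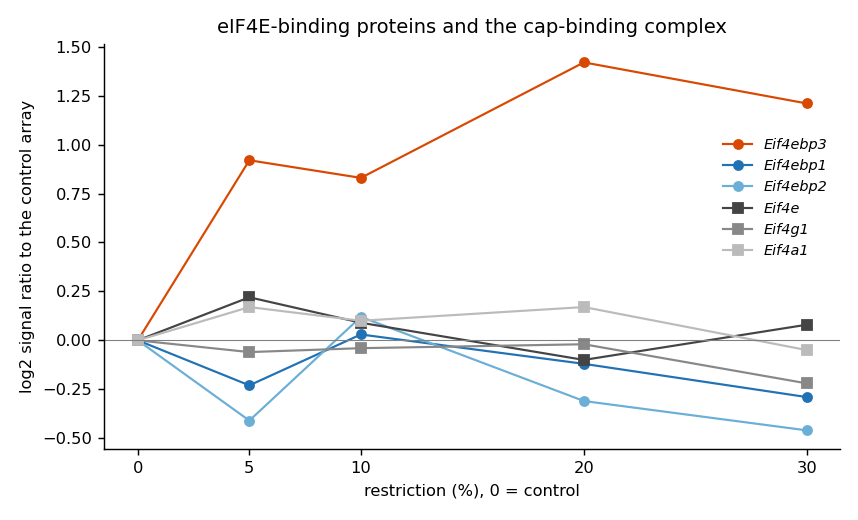
Log2 signal ratio to the control array (y) against restriction level (x, %, 0 = control) for the 3 eIF4E-binding proteins (circles) and *Eif4e*, *Eif4g1* and *Eif4a1* (squares), 1 array per level. *Eif4ebp3* lies between 0.83 and 1.42 on the CR arrays, and *Eif4ebp1* and *Eif4ebp2* lie between -0.46 and 0.12.

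The other 6 initiation genes (*Eif1a*, *Eif1ad*, *Eif1ax*, *Eif1b*, *Eif5b* and *Eif6*) had small mean log2 ratios, all below 0, between -0.15 and -0.03. *Eif1ax*, the start-codon scanning factor, had 472.5 on the control array, then 416.5, 434.7, 416.8 and 440.7 along the CR levels, a mean of -0.15 (SE 0.14). *Eif1a* had a mean of -0.10 and *Eif1ad*, related to it, -0.06. *Eif1ad* rested on 1 array: 142.1 at 20% CR, against 185.1 on the control array, with the other 3 CR arrays at 183.4 to 197.1.

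The elongation group was set by symbol, as every Eef gene and *Eif5a*. It therefore takes in genes that are not themselves elongation factors, such as *Eef2k*, *Eef1e1* and *Eef1akmt1*. Of its 11 genes, 9 were kept, and none had a mean log2 ratio beyond 0.25 in either direction. Of the 9, 6 lay above 0 and 3 below, with a median of 0.10. *Eef1e1* and *Eef1akmt1*, at 0.11 each, are among those above 0, and *Eef2k* is among those below. The brightest probe set of *Eef1a1*, the factor that delivers charged tRNA, had 5307.7 on the control array, then 5041.3, 6447.5, 6332.9 and 5636.4 at 5, 10, 20 and 30% CR. Its control signal lay inside the CR range. The mean log2 ratio was 0.14 (SE 0.16), and the other *Eef1a1* probe set also gave 0.14. *Eef1b2*, its nucleotide exchange factor, had 2831.8 on the control array, then 2962.0, 2982.1, 3321.0 and 3072.5 along the levels, a mean of 0.12 (SE 0.13). *Eef2*, the translocase, had a mean of 0.10 (SE 0.13). *Eef2k*, the kinase that inhibits eEF2, was kept on 1 of 4 probe sets, with 65.0 on the control array, then 49.6, 58.7, 53.6 and 57.6 along the levels. Every CR array was lower, by a mean log2 ratio of -0.25 (SE 0.24), while its 3 dimmer probe sets disagreed with each other.

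All 16 cytosolic synthetase genes with a symbol of the chosen form were kept. *Eprs1*, *Farsa* and *Farsb* are not among them, and had mean log2 ratios of -0.33, 0.46 and 0.08. The median of their mean log2 ratios was -0.015, with 7 above 0 and 9 below, and 13 of the 16 (81.2%) lay within 0.25 of 0. The 3 outside were *Vars1*, *Tars1* and *Rars1*. *Vars1* (probe set 1372578_at) had a signal of 21.4 on the control array, then 60.6, 51.3, 53.7 and 73.1 at 5, 10, 20 and 30% CR. The log2 ratios were 1.5, 1.26, 1.33 and 1.77, a mean of 1.47 (SE 0.28), 2.76-fold, with a limma adjusted p of 0.307. The 4 CR arrays lay close together and none came near control. The control signal is below the filter of 46.5, so this ratio rests on a weak control signal, and *Vars1* was kept through its CR signals and would not have been kept at its control level. With a constant of 13 added to every signal, which damps differences among weak signals, the mean log2 ratio was 1.07. The slope was 0.41 (SE 0.16) log2 per 10% restriction over all arrays and 0.12 (SE 0.13) without the control array.

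*Tars1* (probe set 1372145_at) lay in the other direction. It had a signal of 425.5 on the control array, then 267.4, 362.9, 216.9 and 222.2 at 5, 10, 20 and 30% CR. All CR signals were below control, with the 10% CR array the nearest. The log2 ratios were -0.67, -0.23, -0.97 and -0.94, a mean of -0.70 (SE 0.26), 0.615-fold, with a limma adjusted p of 0.974. Of all kept probe sets, 0.504% had a mean ratio at least as low. The slope was -0.29 (SE 0.09) log2 per 10% restriction and -0.20 (SE 0.11) without the control array. *Rars1*, the arginyl-tRNA synthetase (probe set 1372255_at), had 1107.7 on the control array, then 828.9, 767.3, 941.2 and 1023.6 along the levels. Here the mildest levels, 5 and 10%, lay farthest below control, and the mean log2 ratio was -0.32 (SE 0.17).

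The remaining cytosolic synthetases of the chosen form had mean log2 ratios within 0.25 of 0 and differed in how much they varied over the levels. *Kars1*, the lysyl-tRNA synthetase, had 526.2 on the control array, then 519.5, 514.2, 495.9 and 517.8 along the CR levels, an SD of the ratio over levels of 0.03. *Iars1*, for isoleucine, had 90.8 on the control array, then 108.0, 98.3, 77.0 and 123.3 along the levels, an SD of 0.29, with the 20% CR array below control and the other 3 above it. *Sars1*, for serine, had a mean log2 ratio of 0.19 (SE 0.18), and *Aars1*, for alanine, -0.11 (SE 0.18), with 272.1 on the control array, then 292.1, 254.1, 251.4 and 218.2 along the levels. *Cars1*, for cysteine, had 3 kept probe sets with mean log2 ratios of -0.21, -0.04 and -0.02. Its brightest probe set was above control at 10% CR only, with an SD over the levels of 0.29.

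**Figure D4:**
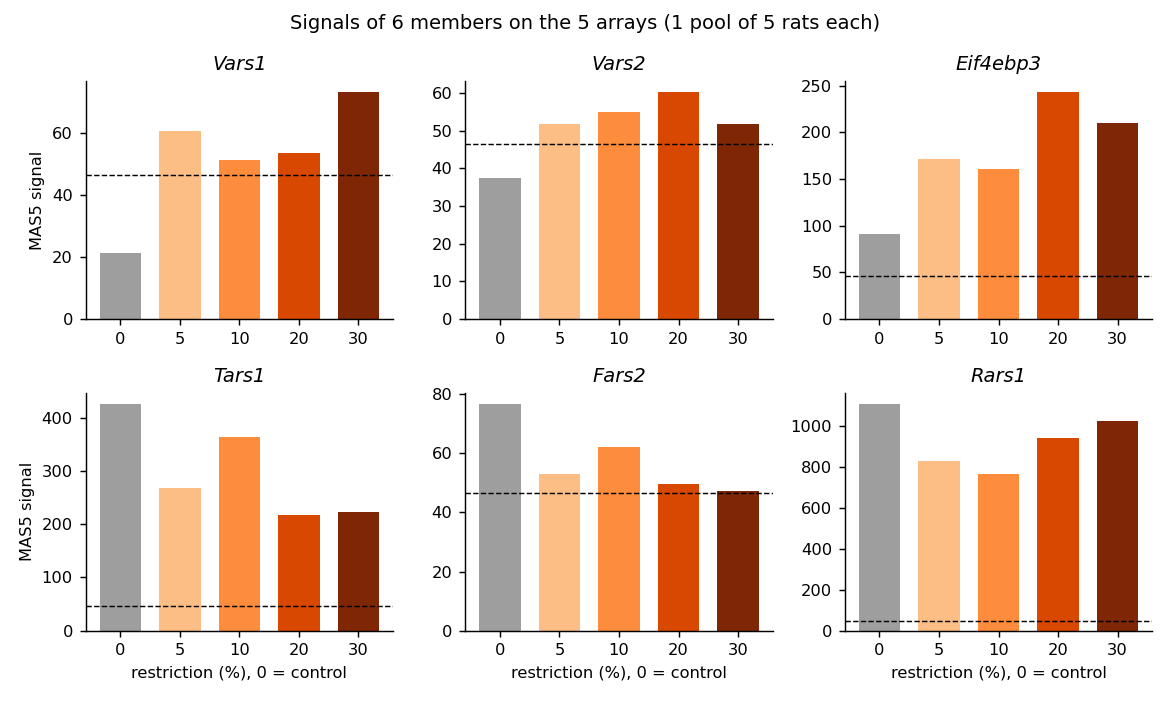
MAS5 signal (linear, y) on each of the 5 arrays against restriction level (x, %, 0 = control) for 6 members, 1 pool of 5 rats per bar; the dashed line is the filter of 46.5. *Vars1* and *Vars2* are under the line on the control array and above it on the 4 CR arrays, and *Tars1* is 425.5 on the control array and 216.9 to 362.9 on the CR arrays.

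Of the 5 mitochondrial synthetase genes, 3 were kept, and they went different ways. *Vars2*, the mitochondrial valyl-tRNA synthetase (probe set 1389689_at), had a signal of 37.6 on the control array, then 51.7, 55.1, 60.2 and 51.7 at 5, 10, 20 and 30% CR. Every CR array was above control, by a mean log2 ratio of 0.54 (SE 0.24), limma adjusted p 0.988, and here too the control signal was below the filter. *Fars2* (probe set 1390267_at) had 76.5 on the control array, then 53.0, 61.9, 49.5 and 47.3 along the levels. Every CR array was below control, by a mean log2 ratio of -0.54 (SE 0.25), limma adjusted p 0.988. *Tars2* had a mean of -0.06 (SE 0.20), so the threonyl-tRNA synthetase of mitochondria did not show the pattern of *Tars1*. The other 2 were under the filter by their mean over the 5 arrays, although their control signals were above 46.5. *Cars2*, for cysteine, had 58.1 on the control array, then 40.6, 54.4, 33.2 and 42.2 along the levels. *Hars2*, for histidine, had 53.2 on the control array, then 35.0, 29.7, 42.2 and 38.0 along the levels. So 3 of the 5 genes had lower signals on every CR array than on the control array. Of all kept probe sets, 20.6% had the control array as the highest of the 5. *Cars2* and *Hars2* were dim, not kept and not tested, so nothing is read from this count.

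Matches of 8 bases to TGATGNAA, the core of the amino acid response element bound by ATF4 and its C/EBP partners, were counted on both strands in RefSeq promoters (build GRCr8, 250 bases before and 50 after each start). Promoters were found for 70 of the 77 genes, in 73 windows. The motif was in 8 of the 73 (11%), against 3.98% of all 33469 promoter windows. Of the 14 cytosolic synthetases with a window, 7 (50%) held it, and *Eif2s2* was the only other member. No window of an elongation, eIF3, eIF4, other initiation or mitochondrial synthetase gene held these letters. The stretches below are shown because they carry that shared feature, and capitals mark the motif, read on the gene's strand, so some lines show its reverse complement.
Tars1, chr2:62114806-62114845 (-): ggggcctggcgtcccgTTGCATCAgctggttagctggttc
Aars1, chr19:55908354-55908393 (+): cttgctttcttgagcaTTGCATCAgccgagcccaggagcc
Iars1, chr17:15193653-15193692 (-): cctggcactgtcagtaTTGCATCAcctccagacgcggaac
Mars1, chr7:65023752-65023781 (-): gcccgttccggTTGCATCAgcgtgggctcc
Nars1, chr18:60275778-60275807 (-): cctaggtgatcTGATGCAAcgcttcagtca
Cars1, chr1:208225334-208225363 (-): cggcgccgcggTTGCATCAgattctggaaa
Yars1, chr5:146820185-146820212 (+): gagctacgagctcagcTGATGCAAcctg
Eif2s2, chr3:163855583-163855622 (-): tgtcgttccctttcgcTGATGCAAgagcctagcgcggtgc

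The genes with the motif did not move as a group. Their mean log2 ratios were -0.70 for *Tars1*, -0.11 for *Aars1*, -0.04 for *Cars1*, -0.03 for *Mars1*, -0.01 for *Nars1*, 0.00 for *Eif2s2*, 0.08 for *Yars1* and 0.14 for *Iars1*. Among the cytosolic synthetases the median was -0.03 for the 7 with the motif, 2 above 0 and 5 below, and 0.07 for the 7 without it, 5 above 0 and 2 below. The other 2, *Gars1* and *Rars1*, had no window. *Vars1* was among those whose window did not hold the letters. A match is a description of the sequence, and binding was not measured.

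**Figure D5:**
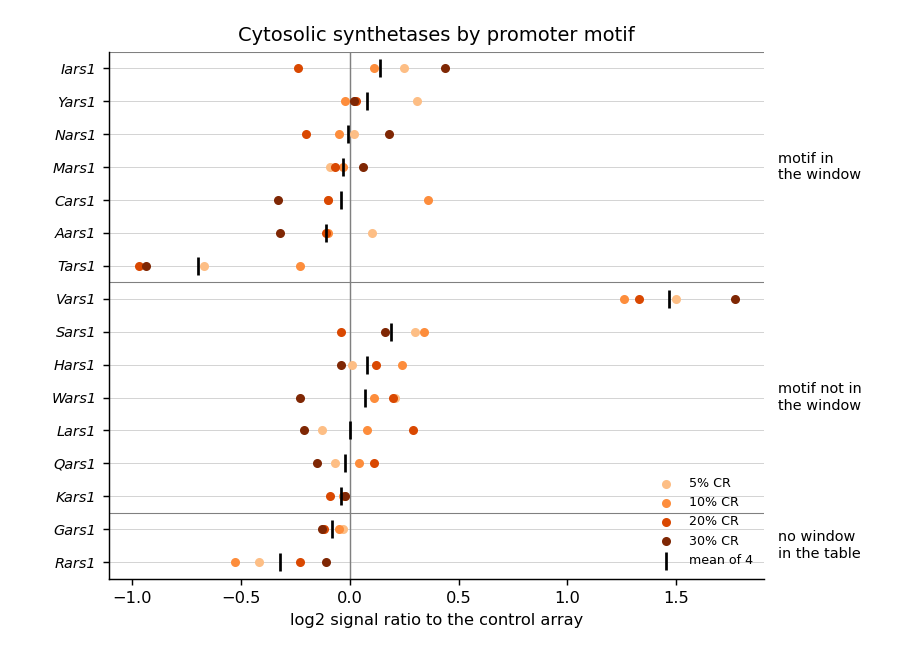
Log2 signal ratio of each CR array to the control array for the 16 cytosolic synthetases, split by whether the TGATGNAA motif was found in the promoter window. Points are the 4 CR levels and bars their means; apart from *Tars1* (-0.70), the genes with the motif have means between -0.11 and 0.14.

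The kept probe sets with a log2 ratio to control of 0.5 or more in size were counted at each level, by direction. The share of the 77 is given beside that of all 7933. At 5% CR, 2 were higher (2.6%, against 5.62% of all) and 3 lower (3.9%, against 3.84% of all). At 10% CR, 3 were higher (3.9%, against 4.73% of all) and 1 was lower, *Rars1* (1.3%, against 3.45% of all). At 20% CR, 3 were higher (3.9%, against 3.95% of all) and 3 lower (3.9%, against 6.15% of all). At 30% CR, 3 were higher (3.9%, against 7.51% of all) and 2 lower, *Fars2* and *Tars1* (2.6%, against 5.61% of all). *Vars1* and *Eif4ebp3* were higher at all 4 levels, 2 of 77 (2.6%, against 0.769% of all), and 0 were lower at all 4 (0.34% of all). *Vars1* and *Vars2* passed the filter only through their CR signals. *Vars1* is counted as higher at every level and *Vars2* at 10 and 20% CR, so nothing is read from the shares of higher probe sets. These counts are a description of 1 array per level, with no test.

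The 2 limma fits treated the arrays as samples. Their p-values therefore rest on the spread between pools of different restriction levels, with 3 residual degrees of freedom. The spread of the single control array could not be measured. The fit against control, which gave the SEs of the mean ratios, assumes it to be that of the CR pools. In the fit of the 4 CR pools against control, 0 of the 77 passed an adjusted p of 0.05 (0.0% of all), and the smallest adjusted p was 0.307, for *Vars1*. At an unadjusted p of 0.05 there were 2 higher, *Vars1* and *Eif4ebp3* (2.71% of all), and 1 lower, *Tars1* (2.05% of all). In the fit of a trend with restriction, 0 passed (0.0% of all) and the smallest adjusted p was 0.998, with the same 3 genes at an unadjusted p of 0.05, 2 with a positive slope (1.55% of all) and 1 with a negative slope (1.54% of all). *Vars1* passed the filter only through its CR signals, so nothing is read from its p-values or its place among the higher and rising genes. Without the control array, no translation gene had an unadjusted limma p under 0.05 for a trend among the CR arrays. Over all 7933 kept probe sets only 77 had one, so nothing is read from the absence of translation genes. The control array was the lowest of the 5 for 11 of the 71 genes (15.5%, against 19.0% of all kept probe sets) and the highest for 14 (19.7%, against 20.6% of all kept probe sets).

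Genes of the ATF4 response and of the mTORC1 pathway were read from separate lists. The first list held 27 genes, *Atf4* and targets of this amino acid stress factor. Of these, 20 were kept, with a median of the mean log2 ratios of -0.03, 9 above 0 and 11 below, and 0 called by limma. *Atf4* itself had 850.9 on the control array, then 886.8, 930.3, 846.6 and 870.3 along the CR levels. *Psat1*, an enzyme of serine synthesis, had 131.3 on the control array, then 96.1, 86.0, 68.0 and 90.3 along the levels, a mean log2 ratio of -0.64 (SE 0.23) and a limma adjusted p of 0.974. *Asns*, asparagine synthetase, had a mean of -0.20 (SE 0.18). Of 28 genes of the mTORC1 pathway, 26 were kept, with a median of -0.05, 10 above 0 and 16 below, and 0 called. This list mixes activators of the pathway with inhibitors, such as *Tsc2* and *Ddit4*, so its median gives no direction for the pathway. *Mtor* had a mean of -0.04, *Rps6kb1*, the kinase of ribosomal protein S6, -0.27 (SE 0.25), and *Rragd*, a GTPase of amino acid sensing, 0.42 (SE 0.27).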

How the data were processed

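Pooled small intestine RNA of 5 groups (control and 5, 10, 20 and 30% CR) was measured on 1 array each. The authors deposited linear MAS5 signal intensities; each array had a trimmed mean of 132 (2% trimmed at each end), so they had been scaled. The version of MAS5 was not given in the sources used here, and the study's detection and change calls need values not used here. Of 15923 probe sets, 57 array controls were left out. Symbols came from GEO's platform annotation: 12783 probe sets had 1 gene symbol, 312 several and 2771 none, and 5 probe sets of several symbols with a translation factor or synthetase were left out. Synthetases were recognised by symbol; *Eprs1*, *Farsa* and *Farsb* do not have the form that the rule names. The translation genes and all lists were chosen with earlier results of these data known.

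Signals were floored at 0.1 and log2-transformed. Probe sets were kept if their mean log2 signal reached the median, 5.54 (a signal of 46.5). limma 3.58.1 (R 4.3.3) fitted CR pools against control and a linear trend, with an intensity trend in the variance and Benjamini-Hochberg adjustment over 7933 probe sets; the pipeline was tested on simulated data. Genes were represented by their brightest probe set, and those named were the 8 highest and 8 lowest mean ratios, members at least 0.5 from control on every CR array, the 3 largest in each role, and the 3 rising and 3 falling with the smallest trend p; other members are described by role. Alternatives were no filter, a filter at quantile 0.75, quantile normalization, a constant of 13 added, arrays centred on their medians, thresholds of 0.25 and 1, all probe sets, each pool left out, other variance priors and ranked levels. Array correlations were 0.971 to 0.988. The number of arrays limits the precision.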

Additional observations from a re-analysis of the deposited data

How the results depend on the processing

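With 1 array per level, no array spread is known, and the single control array enters every ratio. No paired analysis was possible because no pool was measured under more than 1 diet. No translation gene passed the adjusted limma test under any alternative, and 266 of 267 values of the 25 named genes kept their direction. The exception was *Eif1ad*, at -0.06, which became 0.05 without the 20% CR array. Its values with 1 CR array left out ran between -0.11 and 0.05. The 25 genes were named for their values in these same data, and every ratio uses the same control array. Nothing is therefore read from the kept directions. The smallest adjusted limma p of a named gene under an alternative was 0.212, for *Vars1* without the 20% CR array. *Vars1* passed the filter only through its CR signals, so nothing is read from that value. Over all probe sets, 3 passed without the 30% CR array, where 0 did with all arrays. The count of genes at least 0.5 above control on every CR array, 2, became 1 with the stricter filter, which dropped *Vars1*. It became 1 at a size of 1, and 3 at a size of 0.25. Of the other named genes, the stricter filter also dropped *Vars2*, *Fars2*, *Eif2ak2*, *Eif2b5*, *Eif4g3*, *Eef2k* and *Tars2*. The count at least 0.5 below control, 0, became 1 at a size of 0.25, and ran between 0 and 2 with 1 CR array left out; the 2, without the 10% CR array, were *Tars1* and *Fars2*. Median centring put the median ratio at -0.016 for 10% CR, where it had been 0.047, and at 0.002 for 20% CR, where it had been -0.06. The shifts follow from the median signals of the arrays, 49.1 at 10% CR, 45.0 at 20% CR and 47.0 on the control array.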

Other observations

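Genes that work beside the factors and synthetases were read from fixed lists. Of 16 genes of termination, ribosome recycling and poly(A) binding, 14 were kept, with a median of the mean log2 ratios of -0.03. *Dhx29*, a helicase of scanning, had a mean of 0.39 (SE 0.27), with 100.4 on the control array, then 133.3, 146.3, 94.7 and 164.2 at 5, 10, 20 and 30% CR. *Denr*, which acts in ribosome recycling and reinitiation, had a mean of -0.29 (SE 0.19). All 5 mitochondrial translation factors were kept, with a median of -0.22. *Gfm1*, the mitochondrial elongation factor G, had 359.3 on the control array, then 177.8, 291.3, 179.2 and 354.8 along the levels, so that the 5% and 20% CR arrays were low and the 30% CR array was near control.

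Among 7 partners of the synthetases, *Pstk*, a kinase in selenocysteine tRNA synthesis, had 59.7 on the control array, then 98.5, 104.1, 67.6 and 158.3 along the CR levels, a mean log2 ratio of 0.78 (SE 0.37) and a limma adjusted p of 0.988. *Farsa*, the alpha subunit of the cytosolic phenylalanyl-tRNA synthetase, had 66.2 on the control array, then 89.6, 95.3, 101.6 and 79.2 along the levels, a mean of 0.46 (SE 0.22). Its partner *Farsb* had a mean of 0.08 (SE 0.17). *Eprs1*, the glutamyl-prolyl-tRNA synthetase, had 241.1 on the control array, then 210.3, 196.4, 162.6 and 204.2 along the levels, a mean of -0.33 (SE 0.19). None of these genes passed the adjusted limma test.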
